A study of Homo sapiens with 17 samples.

Results

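The genes described here are 48 genes that carry cells through mitosis: the mitotic kinases and cyclins, the spindle checkpoint, the kinetochore and its NDC80 complex, the chromosomal passenger complex, mitotic kinesins, spindle and cytokinesis proteins and a small set of regulators of the G2 and M phases. They were chosen by symbol, and all 48 were found among the 60662 genes of the count table. Their RNA was measured in Ishikawa cells, a line derived from a human endometrial adenocarcinoma widely used as a stand-in for epithelium of the endometrium. Cultures were kept in medium with charcoal-stripped serum, and each treatment lasted 24 h.

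Of the 17 libraries, 3 came from Control cultures in untreated medium, 3 from vehicle control cultures whose treatment label names ethanol and whose title also names Nap, 2 from cultures given Nap alone, and 3 from cultures given Nap and progesterone (P4). What Nap is was not stated in the sources used here, and the P4 concentration is given in conflicting units between the labels and the study's text, so no dose is stated. Ethanol is named only for the vehicle control, so its contrast with P4 may hold a difference in ethanol too. Another 6 libraries came from cultures treated with recombinant human PSAT1, a serine synthesis enzyme, with or without P4. Their titles and treatment labels contradict their descriptions: the 3 libraries titled PSAT1 are described as PSAT1_P4, and the 3 titled PSAT1_P4 are described as PSAT1. They are called here by their titles, and which of the 2 sets received P4 cannot be stated. The replicate cultures are labelled as biological replicates, and no group has more than 3.

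Total counts ranged from 4999521 in vehicle control culture 1 to 19704493 in Control culture 2, and the 47 genes that passed the filter on low counts had at least 41 reads in every library. Against counting noise, Control culture 2 differed most from its own group (14.9 and 18.3 times, by chi-square per degree of freedom). This measure grows with read depth, and that library was the deepest. EPCAM, an epithelial adhesion molecule, was between 172 and 216 CPM (normalised counts scaled to a common library size) in every library and CDH1, the epithelial cadherin, between 233 and 338 CPM. Of 8 epithelial markers, 4 were lower and 2 higher in P4 than in vehicle control cultures: CLDN4 (log2 fold change -1.42), KRT8 (-0.70), KRT19 (-0.35) and KRT18 (-0.34) fell and KRT7 (1.08) and CDH1 (0.24) rose, and the list's sum was 1265 to 1274 CPM with vehicle and 980 to 1125 CPM with P4. The summed CPM of 5 immune markers was at most 1.93 in any library and that of 4 endothelial markers at most 1.75. Of 6 stromal markers 4 were tested for P4 against vehicle control. Lower were 3 of them: COL1A2 (-1.67), PDGFRA (-1.41, at 1.20 CPM with vehicle) and COL1A1 (-0.44), and COL3A1 (-0.14) did not pass. The collagen COL1A2 was abundant, with a mean of 385 CPM in Control, 267 CPM in vehicle control and 84.7 CPM in P4 cultures. The list's sum was 344 to 360 CPM with vehicle and 127 to 180 CPM with P4, and DCN, a defining stromal marker, was at most 0.16 CPM in any library. The part of these markers in the results below was not tested. Reads of the mitochondrial genome made up 25.2% to 27.0% of counts in vehicle control and 25.6% to 26.8% in P4 cultures, ranges that overlap. They made up 21.4% to 28.5% in Control cultures and 22.5% to 23.6% with Nap alone. Libraries titled PSAT1 had 25.6% to 28.7% and those titled PSAT1_P4 had 22.5% to 24.9%, ranges that do not overlap. The libraries titled PSAT1_P4 also lay below the P4 cultures. What these differences do to the results below was not tested.

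Mitosis is started by CDK1 bound to cyclin A or cyclin B, and the anaphase-promoting complex with CDC20 ends it by marking cyclin B and securin for destruction. Between these steps the kinetochore, built on centromeric CENPA chromatin, attaches chromosomes to microtubules through the NDC80 complex, while the checkpoint proteins hold back anaphase until every chromosome is attached. The RNAs of most of these genes are made in the G2 and M phases and are scarce in cells that have left the cycle, so the level in a bulk culture depends on how many of its cells are dividing. In the endometrial epithelium in vivo, progesterone is known to bring proliferation to a halt. In bulk RNA, fewer dividing cells and less of these RNAs per dividing cell cannot be told apart.

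P4 cultures were compared with vehicle control cultures to ask how these genes differed after P4 treatment. Of the 47 genes tested, 40 were lower in P4 cultures, 0 were higher and 7 did not pass. A gene passed, or was called, when its p from the quasi-likelihood test of edgeR, adjusted by Benjamini-Hochberg over all 16540 genes tested, was under 0.05. Over all genes tested, 26.5% were called lower and 26.6% higher. The median log2 fold change of the 47 was -0.53, against -0.01 over all genes tested. The 40 reductions spanned log2 fold changes from -1.59 for SPC25 to -0.18 for KIF23, so that the level in P4 cultures ranged from 33.3% to 88.1% of the vehicle control. A change beyond 1 log2 unit was called for 8 of the 47 (SPC25, MKI67, ESPL1, CENPI, GTSE1, KIF20A, AURKB and SPC24), and 7.03% of all genes tested were lower by that much. In 42 of the 47 all P4 cultures lay below all vehicle control cultures, against 29.6% of all genes tested. Of the 40 calls, 35 stood under every alternative fit and choice of cultures tried, a fold limit of 1 log2 unit aside. The other 5 were CENPK, KIF23, CENPN, CENPM and PRC1, each of which did not pass with DESeq2 (largest adjusted p 0.0967, 0.175, 0.0947, 0.0513 and 0.0771 over the alternatives, in that order). The 48th gene, NUSAP1, a microtubule-bundling protein of the spindle, had 2 to 11 reads per library and was not tested.

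**Figure D1:**
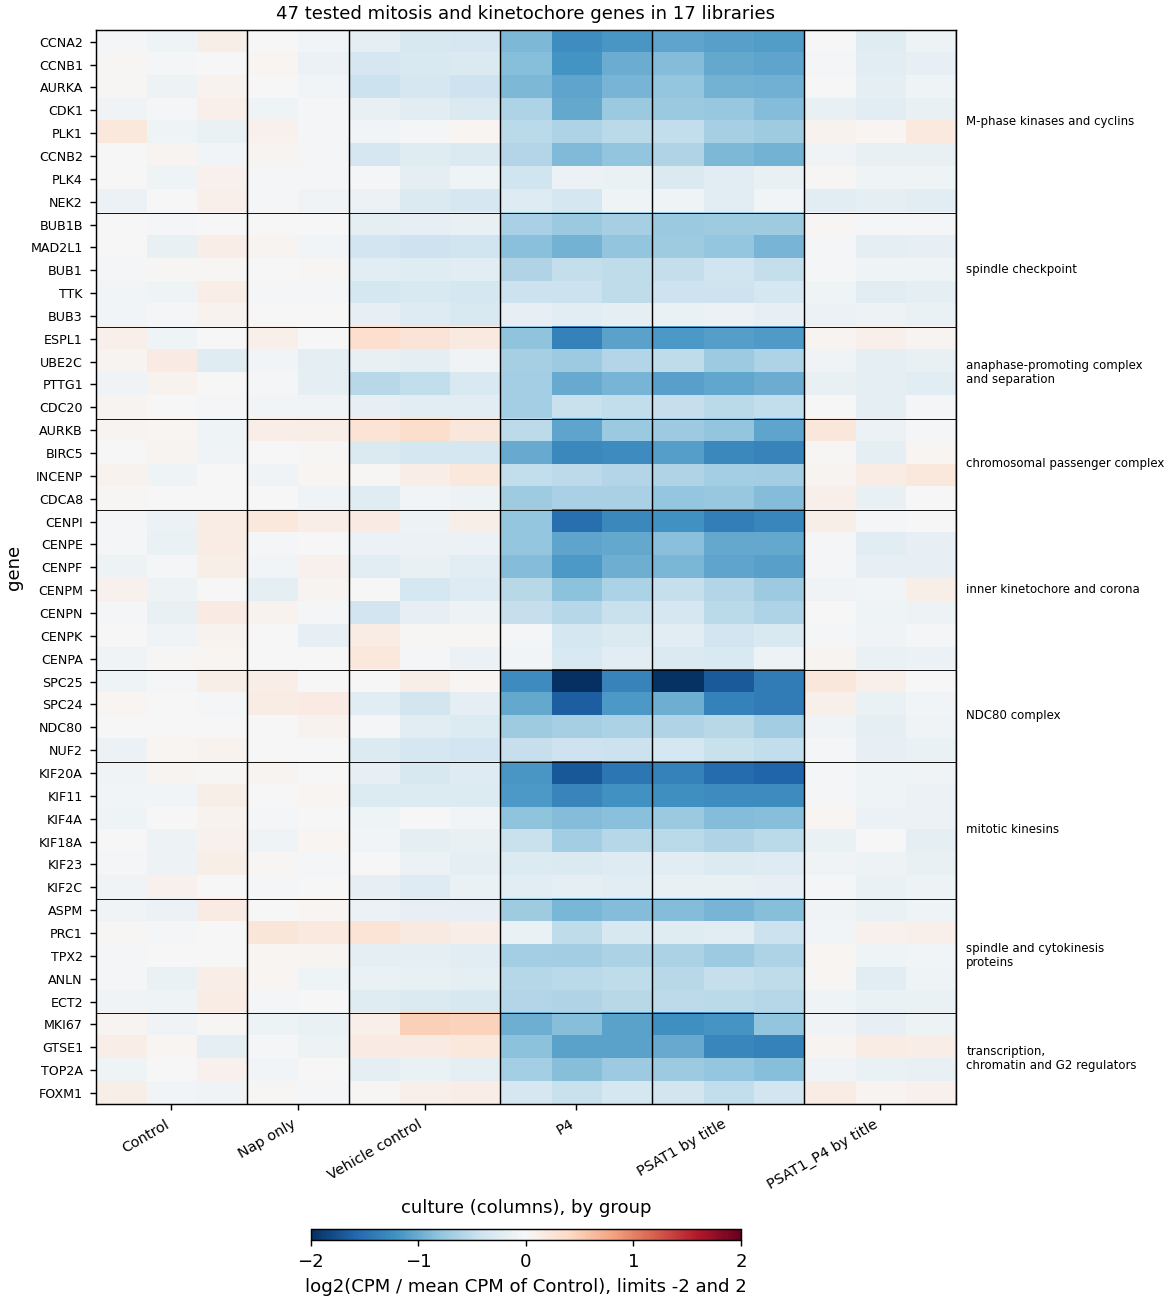
Level of the 47 tested genes (rows, grouped by role) in each of the 17 libraries (columns, grouped), as log2 of CPM over the mean CPM of the Control cultures. The P4 cultures and the cultures titled PSAT1 are blue in most rows, 40 of 47 genes being called lower in P4 than in vehicle control, and the remaining groups are close to white, with faint blue and, for MKI67, ESPL1 and AURKB, faint red in the vehicle control.

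Summed over all 48 genes, the level was 6684 CPM ± 61.1 (SD, n = 3) in vehicle control and 4349 CPM ± 199 (n = 3) in P4 cultures. It was 7333 CPM ± 323 (n = 3) in Control cultures and 7270 CPM ± 23.9 (n = 2) with Nap alone. The P4 cultures, at 4149 to 4548 CPM, stood below every library of those groups.

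Many genes of this kind carry a short element before their start, the cell cycle genes homology region (CHR), which the DREAM complex binds in resting cells and the MuvB complex with B-MYB and FOXM1 binds in G2. RefSeq promoters (GRCh38.p14, 250 bases before to 50 after a start) were at hand for 40 of the 48 genes. FOXM1, CENPM, BUB3, UBE2C, TTK, BIRC5, AURKA and TPX2 have no entry there. TTTGAA, the commonest form of the CHR, was searched on both strands within the 100 bases before the start and was present for 17 of the 40 genes (42.5%), against 5.76% of all 27305 genes with an entry. CCAAT, the box bound by NF-Y, was present on either strand there for 30 of 40 (75.0%), against 21.6% of all. The E2F forms TTTGGCGC, TTTCGCGC, TTTGCCGC and TTTCCCGC were found on either strand in that stretch for 0 of 40 genes, against 1.43% of all, and in the whole window for 3 of 40 (7.50%), against 3.99%. The motifs were counted separately and their matches may share bases, and several genes have more than 1 start in the table. Such a match is a description of these letters and not of a bound site.

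The windows below, 30 bases each in the direction of transcription, belong to the 8 genes named by the rule for this comparison that hold TTTGAA within 100 bases of the start, and are shown because these genes fell together. Capitals mark TTTGAA, or TTCAAA where the element lies on the opposite strand.
KIF11 (chr10:92593090-92593119, + strand): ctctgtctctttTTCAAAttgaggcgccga
MKI67 (chr10:128126447-128126476, - strand): ccagaaTTTGAAtcttcgttttcgTTTGAA
KIF4A (chrX:70290058-70290087, + strand): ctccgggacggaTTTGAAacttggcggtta
GTSE1 (chr22:46296832-46296861, + strand): ctcggagcccttTTCAAAccgaccaatcgg
ESPL1 (chr12:53268256-53268285, + strand): cagccgcggataTTTGAAaggagggtctgg
INCENP (chr11:62123981-62124010, + strand): ggattggctgagccttcagtTTTGAAaatc
BUB1B (chr15:40161034-40161063, + strand): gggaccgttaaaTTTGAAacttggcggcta
CDK1, first match (chr10:60778397-60778426, + strand): ctgattggctgcTTTGAAagtctacgggct
CDK1, second match (chr10:60778448-60778477, + strand): ccctttagcgcggtgagTTTGAAactgctc
The element began 47 bases before the start in MKI67, with a second copy in the same window, and 10 bases before it in INCENP. KIF4A and BUB1B share an unbroken run of 16 bases, aTTTGAAacttggcgg, across the element. The fold changes did not separate by this element within those 100 bases. The 17 genes that hold it there had a median log2 fold change of -0.56 and 16 of them were called lower. The 22 tested genes without it there had a median of -0.55 and 18 were called lower. In the whole window TTTGAA was present for 28 of 40 genes (70%), against 18.2% of all. Some genes counted as without it therefore hold it elsewhere, and this split cannot show whether the element matters. Over all genes, the 413 tested genes with the element within the 100 bases had a median of -0.01, and 115 were called lower. The 10254 tested genes with an entry and without it there had a median of 0.01, and 2855 were called lower. What the element does in these cells was not tested.

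Among the mitotic kinases and cyclins, 6 of 8 fell with P4 and 2 did not pass. CCNB1, cyclin B1, is the partner of CDK1 at mitotic entry and lies on chromosome 5 (69167010 to 69178245, GRCh38, GENCODE 29). It was 203, 208 and 209 CPM in the vehicle control cultures and 142, 113 and 129 CPM in the P4 cultures. The groups did not overlap, and the log2 fold change was -0.71 ± 0.08 (SE, adjusted p 1.65e-05, edgeR). CCNA2, cyclin A2, which acts in S phase and early mitosis, was 123, 113 and 112 CPM with vehicle and 75.1, 59.3 and 62.5 CPM with P4, a log2 fold change of -0.83 ± 0.09. CDK1 itself was 170, 160 and 153 CPM with vehicle and 123, 92.5 and 113 CPM with P4. Its log2 fold change was -0.57 ± 0.09 (adjusted p 0.000285, edgeR), and P4 culture 2 was the lowest. The log2 fold change was -0.58 for AURKA, the kinase of the spindle poles, -0.56 for PLK1, which acts at centrosomes and kinetochores, and -0.48 for CCNB2, cyclin B2.

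The 2 kinases that did not pass both act at the centrosome, as does PLK1, which fell. NEK2, which loosens the link between centrosomes, was 52.9, 46.7 and 45.2 CPM in vehicle control and 48.2, 44.9 and 54.1 CPM in P4 cultures, and its log2 difference was 0.02 (95% interval -0.18 to 0.22). PLK4, which starts centriole duplication, had a log2 difference of -0.13 (95% interval -0.31 to 0.06). The cultures of the 2 groups overlapped for both genes, and the intervals leave room for reductions smaller than those of the cyclins.

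Of 5 spindle checkpoint genes 3 fell. BUB1B encodes BUBR1, part of the complex that inhibits CDC20. It was 92.0, 93.0 and 94.3 CPM in vehicle control cultures and 67.0, 62.8 and 65.9 CPM in P4 cultures, a narrow spread in each group and a log2 fold change of -0.53 ± 0.07. MAD2L1, encoding MAD2, which is loaded on CDC20 at unattached kinetochores, was 92.0, 90.5 and 90.8 CPM and 67.1, 62.1 and 69.6 CPM in the same order, a log2 fold change of -0.47 ± 0.07. BUB1, the kinase that recruits the checkpoint proteins, had a log2 fold change of -0.32.

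BUB3, the WD-repeat protein that carries BUB1 and BUBR1 to the kinetochore, was 170, 160 and 154 CPM in vehicle control and 171, 164 and 166 CPM in P4 cultures. The groups overlapped, and the log2 difference was 0.04 (95% interval -0.10 to 0.17, adjusted p 0.645, edgeR). With upper-quartile normalization the sign of this difference was negative, at -0.0499. TTK, the MPS1 kinase at the head of the checkpoint, had a log2 difference of -0.13 (95% interval -0.27 to 0.01) and did not pass, although its P4 cultures, at 88.7 to 93.7 CPM, all lay below the vehicle control cultures, at 98.7 to 101 CPM.

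All 4 genes of the steps from CDC20 to sister chromatid separation were lower. ESPL1, separase, the protease that opens cohesin, lies on chromosome 12 (53268299 to 53293643, GRCh38) and stood out among them. It was 114, 108 and 102 CPM in vehicle control cultures and 51.6, 35.2 and 43.0 CPM in P4 cultures. The lowest vehicle culture was above the highest P4 culture by a wide margin, with a log2 fold change of -1.33 ± 0.11 (adjusted p 1.59e-06, edgeR). Its inhibitor PTTG1, securin, had a log2 fold change of -0.44 ± 0.10. UBE2C, the ubiquitin-conjugating enzyme of the anaphase-promoting complex, had a log2 fold change of -0.54 ± 0.07, and CDC20, its mitotic activator, one of -0.36 ± 0.07.

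The chromosomal passenger complex corrects faulty attachments and guides cytokinesis, and its 4 subunits all fell. BIRC5, survivin, was 115, 110 and 110 CPM with vehicle and 69.7, 57.6 and 58.8 CPM with P4, a log2 fold change of -0.87 ± 0.08. AURKB, the kinase subunit, was 32.4, 34.2 and 31.3 CPM with vehicle and 18.7, 12.9 and 16.0 CPM with P4, a log2 fold change of -1.06 ± 0.12. The 2 groups were far apart for both. INCENP, the scaffold subunit, had a log2 fold change of -0.67 ± 0.08 and CDCA8, borealin, one of -0.56 ± 0.08.

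At the inner kinetochore and its outer corona 6 of 7 genes fell. CENPE, a plus-end-directed kinesin of the corona, was 244, 245 and 245 CPM in vehicle control cultures and 154, 127 and 130 CPM in P4 cultures, a log2 fold change of -0.85 ± 0.08. CENPF, a large coiled-coil protein of the corona, was 687, 725 and 682 CPM and 440, 362 and 407 CPM in the same order, with a log2 fold change of -0.81 ± 0.08. Both had tight vehicle cultures and a highest P4 value in culture 1. Among the constitutive centromere proteins the sizes were unequal: CENPI fell by 1.23 on the log2 scale, CENPM by 0.46, CENPN by 0.31 and CENPK by 0.30. CENPA, the centromeric histone H3 variant on which the kinetochore is built, did not pass, with a log2 difference of -0.21 (95% interval -0.45 to 0.03).

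The NDC80 complex, the microtubule-binding rod of the kinetochore, holds its 4 subunits in equal numbers, and their RNAs differed in how far they fell. SPC25, on chromosome 2 (168834132 to 168913371, GRCh38), was 15.9, 17.2 and 16.3 CPM in vehicle control cultures and 6.6, 3.8 and 6.3 CPM in P4 cultures. Its log2 fold change of -1.59 ± 0.17 (adjusted p 1.17e-05, edgeR) was the largest of all 47 genes. SPC24, its partner at the kinetochore end of the rod, was 35.3, 31.8 and 35.8 CPM with vehicle and 20.1, 13.1 and 18.5 CPM with P4, and fell to 49.9% of the vehicle level. Both were lowest in P4 culture 2. At the microtubule end, NDC80 itself had a log2 fold change of -0.50 ± 0.08, and NUF2, its partner there, had a log2 difference of -0.11 (95% interval -0.27 to 0.05) and did not pass. Per kilobase of exon, the mean levels of the 4 subunits in vehicle control cultures ran from 8.95 RPKM (SPC25) to 15.7 RPKM (NDC80), a ratio of 1.75 between highest and lowest. In P4 cultures they ran from 3.02 RPKM (SPC25) to 13.8 RPKM (NUF2), a ratio of 4.56. In log2 terms, the CPM of SPC25 over that of NUF2 was -1.59 ± 0.09 (SD, n = 3) with vehicle and -3.10 ± 0.46 (n = 3) with P4, and this pair was chosen after its values were seen, so no test is given.

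Of the 6 mitotic kinesins 5 fell. KIF11, the bipolar motor Eg5 that pushes spindle poles apart, lies on chromosome 10 (92593286 to 92655395, GRCh38). It was 188, 188 and 189 CPM in vehicle control cultures and 103, 90.9 and 98.7 CPM in P4 cultures, so that the vehicle cultures were nearly equal (SD 0.544 CPM) and the P4 cultures more spread (SD 5.95 CPM), without overlap. The log2 fold change was -0.96 ± 0.07, and its adjusted p of 2.90e-07 (edgeR) was the smallest of the 47. KIF4A, a chromosome-arm kinesin that also shapes the midzone, was 167, 177 and 172 CPM and 102, 98.1 and 100 CPM in the same order, with a log2 fold change of -0.80 ± 0.06. KIF20A, MKLP2, which brings the passenger complex to the midzone, had a log2 fold change of -1.18 ± 0.11, KIF18A, which dampens chromosome movements, one of -0.46 ± 0.08, and KIF23, MKLP1 of the centralspindlin complex, one of -0.18 ± 0.07. KIF2C, the microtubule-depolymerizing kinesin MCAK, was 94.1, 87.7 and 95.6 CPM with vehicle and 90.8, 91.6 and 91.2 CPM with P4. Its groups overlapped and the log2 difference was -0.03 (95% interval -0.17 to 0.11).

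Every tested member of the spindle and cytokinesis group, 5 of 5, was lower. ASPM, a spindle-pole protein, was 475, 459 and 459 CPM with vehicle and 315, 273 and 282 CPM with P4, a log2 fold change of -0.69 ± 0.07. TPX2, the activator of AURKA on spindle microtubules, was 192, 193 and 188 CPM and 136, 135 and 140 CPM in the same order, a log2 fold change of -0.49 ± 0.06. No culture of one group reached the range of the other for these genes. ANLN, the actin-binding ring protein anillin, ECT2, which activates RhoA at the cleavage plane, and PRC1, which bundles midzone microtubules, had log2 fold changes of -0.40, -0.31 and -0.51. PRC1 was counted at 49 to 148 reads per library, and 57.6% of its exon bases are shared with an overlapping gene on the same strand. For NUSAP1 that share is 62.2%. Reads in shared bases cannot be given to one gene, so the levels of these 2 are uncertain. Same-strand overlaps were smaller for BUB1B (10.2%) and CENPA (7.0%). On the opposite strand the overlap with a single gene reached 15.9% (FOXM1), which matters only if the counting ignored strand.

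**Figure D2:**
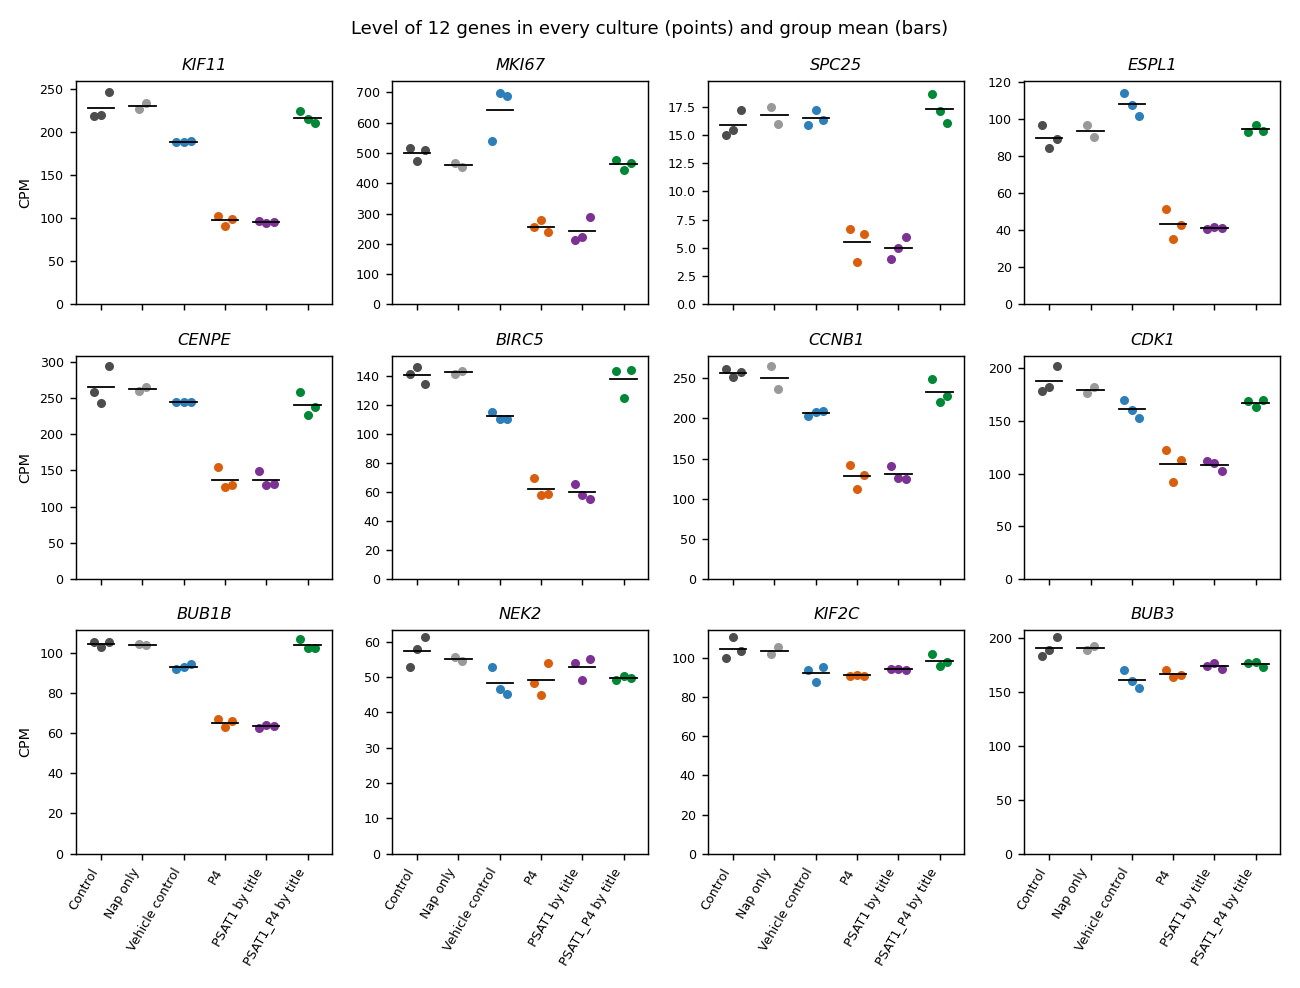
CPM (vertical axes, from 0) of 12 genes in each culture (points) of the 6 groups, with the group mean as a bar. For KIF11 the P4 cultures sit between 90.9 and 103 CPM and the vehicle control cultures at 188 to 189 CPM, while the points of NEK2, KIF2C and BUB3 overlap between these 2 groups.

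The last group holds regulators of transcription, chromatin and G2, and its 4 genes all fell. MKI67 encodes the proliferation antigen Ki-67, which coats mitotic chromosomes, and lies on chromosome 10 (128096659 to 128126385, GRCh38). It was 539, 699 and 689 CPM in vehicle control cultures and 254, 278 and 239 CPM in P4 cultures. Vehicle culture 1 was the lowest of its group and still well above every P4 culture, and the log2 fold change was -1.34 ± 0.10 (adjusted p 4.65e-07, edgeR). GTSE1, a microtubule-associated protein of G2 and mitosis, was 47.7, 47.7 and 49.3 CPM with vehicle and 24.1, 20.2 and 20.3 CPM with P4, a log2 fold change of -1.18 ± 0.09. TOP2A, topoisomerase II alpha, which untangles sister chromatids, was 682, 706 and 689 CPM with vehicle and 486, 432 and 470 CPM with P4, a log2 fold change of -0.59 ± 0.06. FOXM1, a transcription factor that drives many G2 and M genes, was 154, 162 and 167 CPM and 121, 111 and 118 CPM in the same order. Its log2 fold change of -0.48 ± 0.07 was close to the median of the 47 genes.

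Gene lists beside these were described by their counts and medians. Of 56 other mitotic genes, all tested, 37 were lower, 3 were higher and 16 did not pass, with a median log2 fold change of -0.45. KIF20B, a kinesin of late cytokinesis, and CENPO, a constitutive centromere protein, had the smallest adjusted p among the lower ones, with log2 fold changes of -0.86 ± 0.07 and -1.20 ± 0.09. The 3 that rose were MIS12, a kinetochore scaffold subunit (0.37 ± 0.10), ZW10, which recruits dynein to kinetochores (0.33 ± 0.10), and SKA1, of the complex that supports NDC80 on microtubules (0.22 ± 0.08). SKA1 lies outside the naming rule and was added to complete the count of 3.

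Condensin, which compacts mitotic chromosomes, fell in 7 of its 8 subunits with a median of -0.45, led by NCAPH and NCAPD2 (-0.78 each). The subunits of the anaphase-promoting complex itself did not follow this pattern. Of 15 tested, 1 was lower (ANAPC15, -0.86 ± 0.14), 5 were higher and 9 did not pass, and the median log2 fold change was 0.00. Over all genes tested, 26.6% were called higher. ANAPC16 was 71.9, 63.4 and 66.1 CPM in vehicle control cultures and 103, 98.2 and 103 CPM in P4 cultures, a log2 fold change of 0.59 ± 0.07, and ANAPC5, a subunit of the platform, had one of 0.44 ± 0.08.

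Genes of the preceding S phase were also lower in most cases: 23 of 26 fell, 1 rose and 2 did not pass, with a median of -0.57. FEN1, the flap endonuclease of lagging-strand synthesis, and MCM4, a subunit of the replicative helicase, had log2 fold changes of -1.33 ± 0.08 and -1.12 ± 0.08, and the 1 that rose was PRIM1, the primase subunit (0.41 ± 0.10). Among 19 G1 and arrest regulators 5 were lower and 8 were higher, with a median of 0.00, where 26.5% of all genes tested were lower and 26.6% higher. CDKN1A, the CDK inhibitor p21, rose from 80.9, 87.1 and 81.4 CPM in vehicle control to 202, 243 and 237 CPM in P4 cultures, a log2 fold change of 1.44 ± 0.08. CCND1, cyclin D1, which drives cells out of G1, was 264, 263 and 265 CPM with vehicle and 136, 98.2 and 123 CPM with P4, a log2 fold change of -1.16 ± 0.10, and CDK2 had one of -0.45 ± 0.07. The other CDK inhibitors of this list were named after their values were seen. CDKN1B (1.04 ± 0.10) and CDKN2B (1.04 ± 0.16) were higher, CDKN2C was lower, at -1.11 ± 0.18, and CDKN1C and CDKN2A did not pass.

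**Figure D3:**
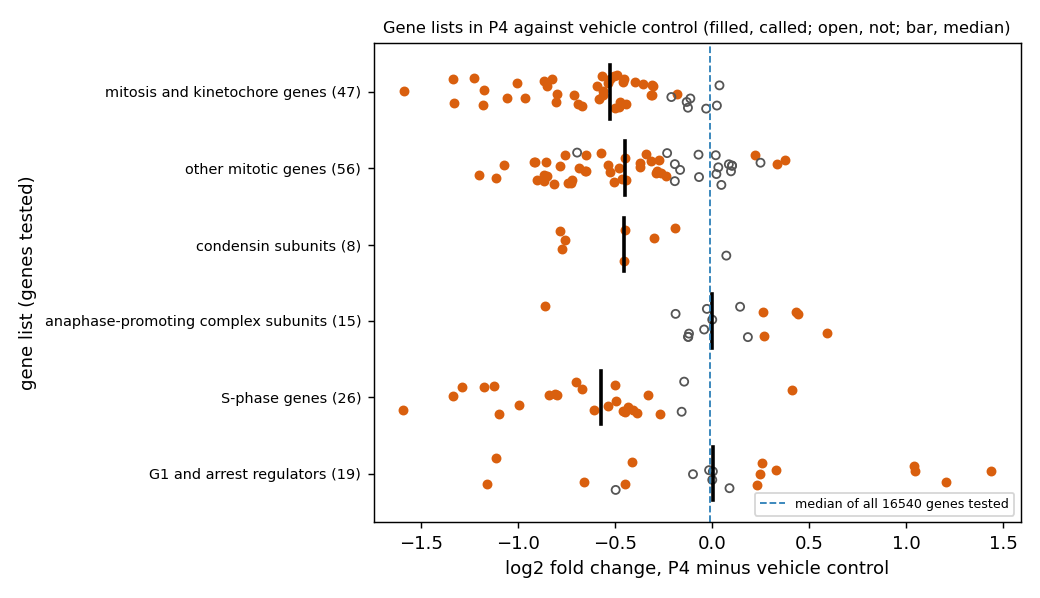
Log2 fold change, P4 minus vehicle control (horizontal axis), of each tested gene of 6 lists (rows, with the number tested). Filled points passed an adjusted p under 0.05, bars are list medians and the dashed line is the median of all 16540 genes tested: the medians are -0.53 for the 47 mitosis and kinetochore genes and -0.57 for the S-phase genes, and 0.00 for the subunits of the anaphase-promoting complex.

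The untreated Control cultures give a second reference for P4, with the same 3 P4 libraries and without the vehicle control libraries. Against them, 43 of 47 genes were lower and 0 higher, where 28.0% of all 16620 genes tested were called lower, and the median log2 fold change was -0.69. The smallest adjusted p were those of KIF11 (log2 fold change -1.25 ± 0.10), KIF20A (-1.44 ± 0.12) and BIRC5 (-1.20 ± 0.10). Genes that did not pass against the vehicle control differed here: BUB3 (-0.22 ± 0.09, adjusted p 0.0452), NEK2 (-0.24 ± 0.10, adjusted p 0.0497) and KIF2C (-0.22 ± 0.09, adjusted p 0.0396) passed narrowly by edgeR and did not pass with DESeq2 or with RLE normalization, and NUF2 and TTK had log2 fold changes of -0.46 and -0.48. CENPA, CENPK, PLK4 and PRC1 did not pass.

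The vehicle control was compared with Control to show what the vehicle carried by itself. Of the 47 genes 19 were lower, where 10.7% of all 16673 genes tested were called lower, and 3 were higher, where 11.9% were called higher. The median log2 fold change was -0.18 and no gene moved by more than 0.44 in size. The 3 with the smallest adjusted p were PTTG1 (-0.44 ± 0.08), MAD2L1 (-0.40 ± 0.08) and AURKA (-0.39 ± 0.08). Securin was 77.5, 85.8 and 80.5 CPM in Control cultures and 55.6, 57.7 and 65.6 CPM in vehicle control cultures, without overlap. These counts changed when a vehicle control culture was left out. Without culture 2 there were 8 calls, all lower, and without culture 3 there were 7 lower and 1 higher. Without culture 1 there were 14 lower and 1 higher. Each of these fits had 1 vehicle control culture fewer, and its calls over all genes are not given here. Whether a single library or the smaller number of cultures lies behind the change was not tested. Of the 22 calls 7 stood under every alternative fit and choice of cultures, a fold limit of 1 log2 unit aside.

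The 3 genes that rose with the vehicle were MKI67 (0.36 ± 0.09), AURKB (0.28 ± 0.09) and ESPL1 (0.26 ± 0.08). MKI67 was 517, 474 and 509 CPM in Control cultures and 539, 699 and 689 CPM in vehicle control cultures, so that culture 1 stood close to the Control range and the other two well above it. None of the 3 calls stood under every alternative: leaving out vehicle control culture 2 ended each of them, with adjusted p of up to 0.0546 for MKI67, 0.0894 for ESPL1 and 0.184 for AURKB over the alternatives (edgeR and DESeq2). The same 3 genes were among the 8 that fell by more than 1 log2 unit with P4 against the vehicle control, a comparison that shares the vehicle control libraries. Against Control, with which P4 shares no library, their log2 fold changes were smaller in size: -0.98 ± 0.10 for MKI67, -0.79 ± 0.13 for AURKB and -1.08 ± 0.12 for ESPL1. For TTK, NUF2, BUB3 and NEK2 the order was the other way round. Their log2 fold changes were -0.33, -0.33, -0.25 and -0.26 for vehicle against Control and between -0.13 and 0.04 for P4 against vehicle, with none called in the second. The calls of BUB3 and NEK2 in the first ended without vehicle control culture 2 or 3, that of NEK2 also without Control culture 3, with adjusted p of up to 0.128 and 0.178 (edgeR), and these 2 comparisons share the vehicle control libraries.

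**Figure D4:**
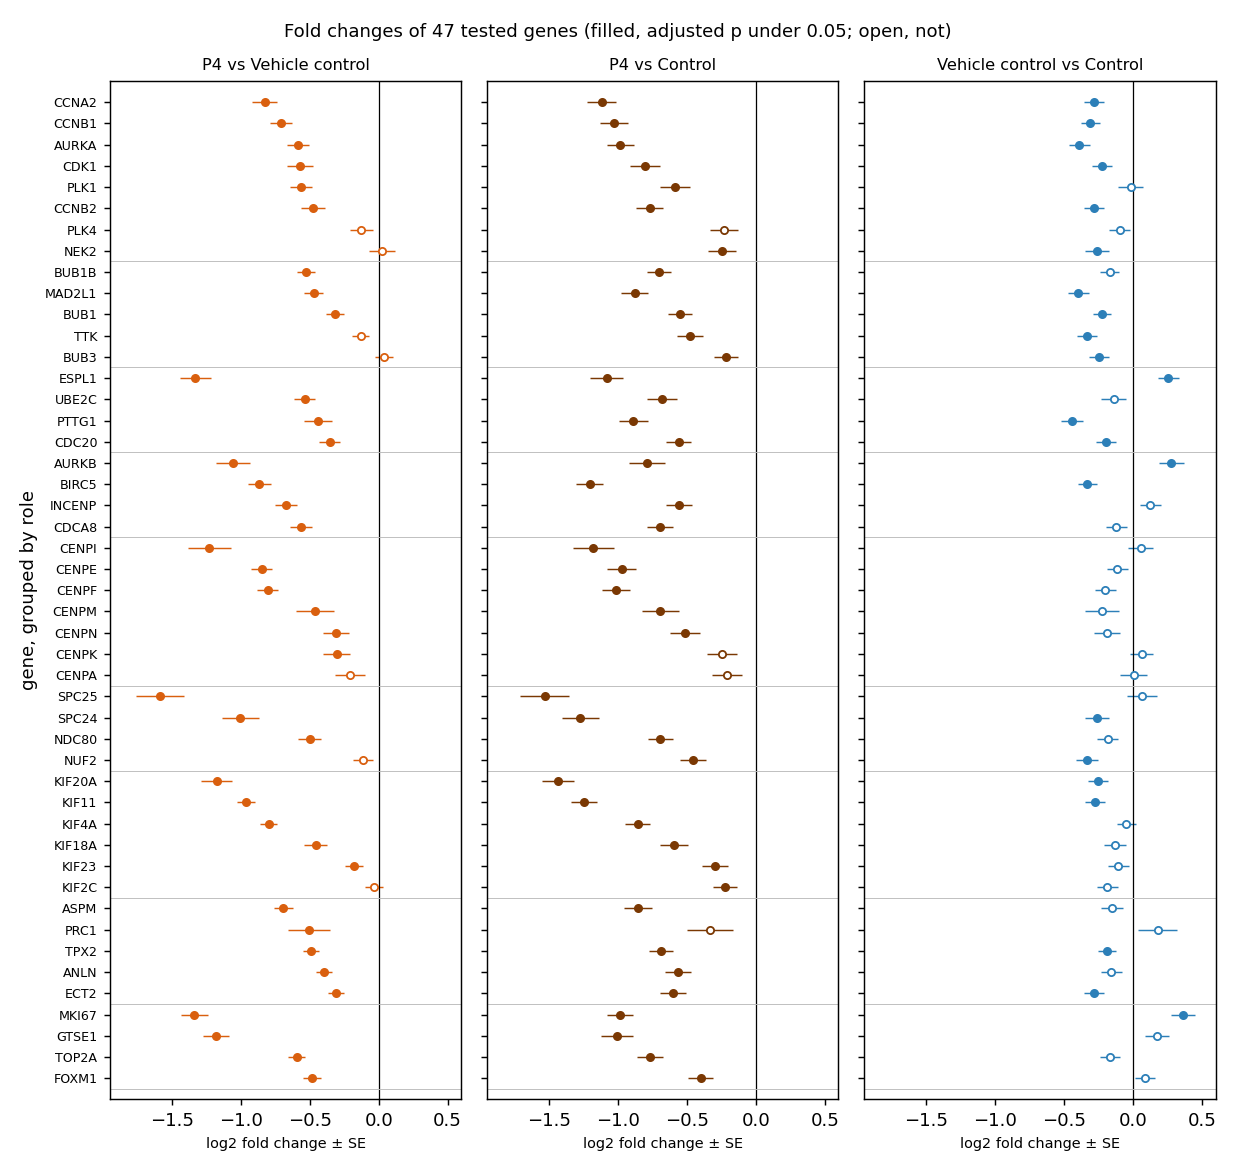
Log2 fold change ± SE (horizontal axes) of the 47 tested genes (rows, grouped by role) in 3 comparisons (panels), with filled points for an adjusted p under 0.05. Nearly all points of both P4 panels lie left of 0, down to -1.59 for SPC25, while the vehicle panel stays between -0.44 and 0.36.

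Cultures given Nap alone (n = 2) were compared with Control. None of the 47 genes passed by edgeR or by DESeq2, and 0 of them had an unadjusted p under 0.05. Over all 17166 genes tested 0% were called by edgeR, where 217 had an unadjusted p under 0.05, and DESeq2 called 1. The log2 differences of the 47 genes were between -0.12 and 0.23, and their 95% intervals lay within -0.35 to 0.55. KIF11 was 226 and 233 CPM with Nap alone and 218, 219 and 246 CPM in Control cultures, and MKI67 was 468 and 454 CPM against 517, 474 and 509 CPM.

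The 6 libraries of PSAT1-treated cultures fell into the 2 sets given by their titles. The libraries titled PSAT1 were lower than Control in 43 of 47 genes, with 30.2% of all 16209 genes tested called lower, and had a median log2 fold change of -0.73. KIF20A (-1.51 ± 0.09), KIF11 (-1.26 ± 0.09) and BIRC5 (-1.25 ± 0.09) had the smallest adjusted p, and BUB3, KIF2C, NEK2 and PRC1 did not pass. For the libraries titled PSAT1_P4 none of the 47 passed against Control by edgeR or DESeq2, and 2 had an unadjusted p under 0.05. Of all 17214 genes tested 0% were called by either tool, with 1004 at an unadjusted p under 0.05 by edgeR. The median log2 difference was -0.06, and the 95% intervals of the 47 genes lay within -0.36 to 0.36.

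KIF11 was 96.9, 94.8 and 95.7 CPM in the libraries titled PSAT1 and 224, 215 and 211 CPM in those titled PSAT1_P4. SPC25 was 4.0, 5.0 and 6.0 CPM in the first and 18.6, 17.1 and 16.0 CPM in the second. The first set lies where the P4 cultures lie for both genes, and the second near the Control cultures. Compared directly, libraries titled PSAT1_P4 were higher than those titled PSAT1 in 43 of 47 genes, where 31.6% of all 16586 genes tested were called higher, with a median log2 fold change of 0.71. KIF20A (1.45 ± 0.07), KIF11 (1.20 ± 0.06) and ESPL1 (1.22 ± 0.07) had the smallest adjusted p.

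Against the P4 cultures, none of the 47 genes passed in the libraries titled PSAT1 by edgeR or DESeq2, and 0 had an unadjusted p under 0.05. Of all 15621 genes tested 0% were called by either tool, with 199 at an unadjusted p under 0.05 by edgeR. The median log2 difference of the 47 was -0.02, and single genes lay between -0.23 and 0.09 with 95% intervals within -0.69 to 0.39. The libraries titled PSAT1_P4 were higher than the P4 cultures in 41 of 47 genes, with 28.8% of all 16882 genes tested called higher and a median log2 fold change of 0.68. The 3 with the smallest adjusted p were KIF11 (1.17 ± 0.07), KIF20A (1.37 ± 0.11) and BIRC5 (1.17 ± 0.09). The unequal fall within the NDC80 complex was present in both low sets of libraries: the ratio of highest to lowest subunit per kilobase was 5.10 in the libraries titled PSAT1, and 1.84 in those titled PSAT1_P4, which compares with 2.16 in Control cultures.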

How the data were processed

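The authors trimmed reads with Cutadapt, kept unique Subread alignments, and deposited the raw featureCounts counts of GENCODE 31 genes. Libraries were stranded, and the strand setting of the counting is not given in the sources used here. Gene names came from GENCODE 29, and all 17 columns were matched to samples by description (columns not used: 0). The members and lists were chosen with earlier results of these data known.

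From the counts, edgeR 4.0.16 (R 4.3.3) was run on the 2 groups of each comparison with filterByExpr (minimum count 10), TMM normalization and robust quasi-likelihood fits. Adjustment was by Benjamini-Hochberg over all genes tested, with calls at an adjusted p under 0.05. The script was tested on simulated data. CPM use TMM over all 17 libraries, and RPKM divide CPM by exon length. Errors are SE of fits or SD of cultures. Library totals were 4999521 to 19704493, and replicates of a group differed by 1.48 to 18.3 times counting noise (chi-square per degree of freedom).

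For P4 against vehicle control the text names, in each role, the 2 called genes of smallest adjusted p per direction, genes called against the majority, untested genes, and CDK1, CCNB1, FOXM1, MKI67, TOP2A and BUB3. In other comparisons it names 3 genes in each direction, and in other lists 2, of which 1 gene is not reported here. Further genes were named after their values were seen. Alternatives were DESeq2 1.42.0, upper-quartile or RLE scaling, leaving out the filter, a minimum of 10 counts in all samples, a joint fit of all 6 groups, a replicate block, a fold limit of 1 log2 unit and each culture left out. Tables were made with Python 3.11.15.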

Additional observations from a re-analysis of the deposited data

How the results depend on the processing

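Upper-quartile normalization shifted the median of all genes to -0.10 for P4 against vehicle control and moved the median log2 fold change of the 47 genes to -0.62 there, to -0.83 for libraries titled PSAT1 against Control, to 0.80 for those titled PSAT1_P4 against PSAT1, and to 0.77 for PSAT1_P4 against P4. BUB3 became -0.0499. With all 6 groups in the fit the median of the libraries titled PSAT1 against Control was -0.69. Throughout this section PSAT1 and PSAT1_P4 are titles, and which set received P4 cannot be stated. Calls lower by more than 1 log2 unit numbered 8 for P4 against vehicle control, where 1162 of all 16540 genes tested were so called. They numbered 11 for P4 against Control (1259 of 16620) and 12 for PSAT1 against Control (1373 of 16209). Vehicle against Control had 0 (90 of 16673). Calls higher by that much numbered 8 for PSAT1_P4 against PSAT1 and 9 for PSAT1_P4 against P4, and their counts over all genes are not given here. DESeq2 called 35 of 48 genes lower for P4 against vehicle control, and 7223 of all 32920 genes in either direction. Its count of all genes called lower is not given here. The 32920 genes were not filtered on counts as the 16540 of edgeR were, so the shares are not alike.

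Leaving out each culture in turn gave 37 to 41 calls for P4 against vehicle control. For vehicle against Control it gave 8 to 26, with medians of -0.19 to -0.15. Calls over all genes in these fits are not given here, so these counts cannot be read as a result about these genes. Medians ranged from -0.0270 to 0.0310 for Nap alone against Control and from 0.65 to 0.72 for PSAT1_P4 against PSAT1. The causes were not tested.

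Replicate numbers were not taken as pairs: deviations of same-numbered P4 and vehicle control cultures correlated at -0.017 to 0.0363, and at least 1 of the 3 pairs was below 0 in every comparison with 3, although single pairs reached 0.227 (PSAT1 against P4) and 0.144 (PSAT1_P4 against Control). The 2 pairs of Nap alone and Control correlated at 0.206 and 0.240. Deviations were taken from the mean of each group, so the pairs of a comparison are not independent, and the 2 Nap cultures deviate as mirror images. These correlations are therefore weak ground for or against pairing. With the number as a block, 40 genes were called for P4 against vehicle control, as without it. The count over all genes with the block is not given here. The median for Nap alone against Control, which has only 2 pairs, was 0.0319 with the block. NUSAP1, at 2 to 11 reads, was too shallow to test.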
